A study of Arabidopsis thaliana with 6 samples.

Results

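The PHT1 family of Arabidopsis thaliana comprises 9 phosphate transporters of the plasma membrane. Its 9 genes were taken from a table of 32833 genes by their locus identifiers. RNA was sequenced from 6 samples, 3 of wild-type Col-0 plants (WT) and 3 of xal1-2, a loss-of-function mutant of the MADS-box gene XAANTAL1 (XAL1) in the Col-0 background. Both genotypes grew on 1 medium, 0.2X MS salts plus 1% sucrose, at 22 °C under days of 16 h light and nights of 8 h. Roots were harvested at 8 days after sowing without hypocotyls and cotyledons, and each replicate pooled about 60 plants. No sample was grown at another phosphate supply, so the data hold no phosphate-starved reference. The mutant is a single allele, and the whole plant carries it rather than chosen root cells.

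PHT1 proteins carry phosphate together with protons across the plasma membrane. PHT1;1 (AT5G43350) and PHT1;4 (AT2G38940) are known as the main carriers of uptake in Arabidopsis roots, with PHT1;2 (AT5G43370) and PHT1;3 (AT5G43360) also contributing. PHT1;5 (AT2G32830) is known for moving phosphate between source and sink organs, and PHT1;6 (AT5G43340) and PHT1;7 (AT3G54700) for expression in pollen. PHT1;8 (AT1G20860) and PHT1;9 (AT1G76430) are known for uptake under phosphate shortage and for transfer to the shoot. In phosphate-starved plants the transcription factor PHR1 binds the P1BS element in promoters of many starvation genes, and SPX proteins hold PHR1 back when phosphate is plentiful.

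Of the PHT1 genes, 4 lie within 24375 bases of chromosome 5 (TAIR10.1, 17393598 to 17417972), in the order PHT1;6, PHT1;1, PHT1;3 and PHT1;2. AT5G43350 (17399769 to 17402158) and AT5G43340 (17393598 to 17395148) are on the minus strand, and AT5G43360 (17409524 to 17411214) and AT5G43370 (17415698 to 17417972) on the plus strand. PHT1;4 is on the plus strand of chromosome 2 at 16257157 to 16260253, with 2 exons. None of the 9 genes overlaps another annotated gene on either strand. The first 120 coding bases of the tandem copies and of AT2G38940 are shown because they bear on how far reads of these genes can be told apart. Capitals mark bases that differ from AT5G43350 at the same position, namely 2 in AT5G43370, 11 in AT5G43360 and 28 in AT2G38940. The stretches lie on chromosome 5 at 17401524 to 17401643 for AT5G43350, 17416074 to 17416193 for AT5G43370 and 17409524 to 17409643 for AT5G43360, and on chromosome 2 at 16258500 to 16258619 for AT2G38940, each read on the gene's own strand.
AT5G43350: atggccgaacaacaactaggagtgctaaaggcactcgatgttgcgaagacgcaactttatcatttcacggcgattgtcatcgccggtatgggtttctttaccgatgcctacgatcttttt
AT5G43370: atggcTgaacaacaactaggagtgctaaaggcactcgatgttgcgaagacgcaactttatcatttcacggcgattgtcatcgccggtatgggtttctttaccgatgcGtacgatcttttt
AT5G43360: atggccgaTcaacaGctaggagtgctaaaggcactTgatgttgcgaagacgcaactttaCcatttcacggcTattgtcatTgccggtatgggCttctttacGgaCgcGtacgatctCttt
AT2G38940: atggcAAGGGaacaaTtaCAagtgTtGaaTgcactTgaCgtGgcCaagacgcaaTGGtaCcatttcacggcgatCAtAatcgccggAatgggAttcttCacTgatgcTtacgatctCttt

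Over the whole coding sequence PHT1;1 and AT5G43370 were 97.7% identical, with 36 differing bases in 1575 and an identical run of 404 bases. AT5G43360 was 90.0% identical to AT5G43350, and PHT1;4 was 71.8% identical to it. Of the 100-base windows of the AT5G43350 transcript, 30.4% occur unchanged in the transcript of another PHT1 gene, and of those of AT5G43370, 32.9%. For the other 7 genes that share was 0% in 100-base windows, so an exact match of that length separates AT2G38940 from the rest of the family. No source used here says how reads matching several genes were counted. The division of reads between AT5G43350 and AT5G43370 is therefore uncertain. Had such reads been discarded, the levels of both genes and their sum would be too low in every library, and the ratio and share of AT2G38940 given below too high.

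**Figure D1:**
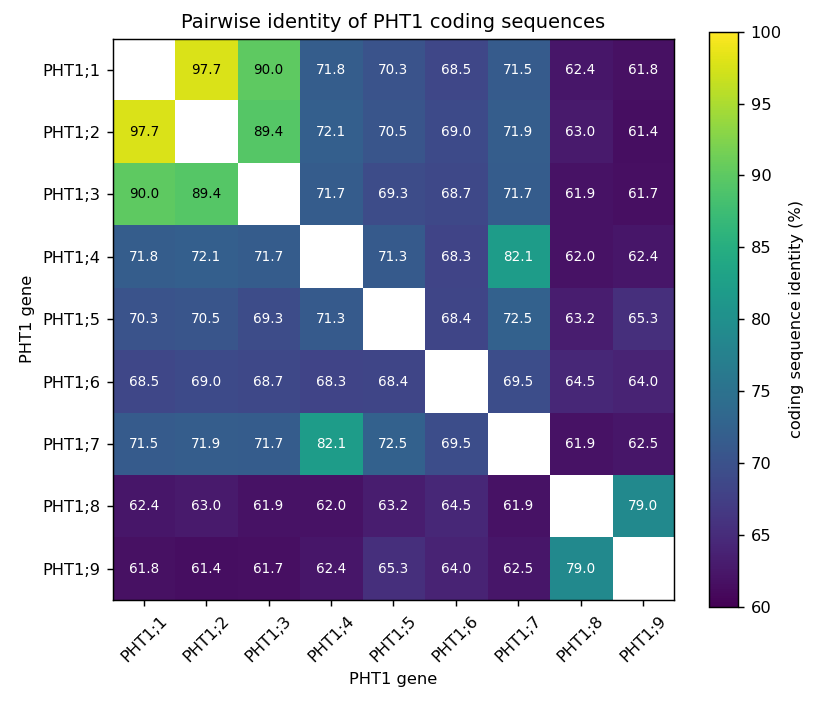
Percent identity of coding sequences for each pair of PHT1 genes, over aligned bases, with gene names on both axes and colour running from 60 to 100%. PHT1;1 and AT5G43370 form the closest pair (97.7%), followed by their pairs with AT5G43360 and by PHT1;4 with AT3G54700 (82.1%).

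Reads assigned to genes ran from 6978879 to 9247089 per library. Transcript of XAL1 was lower in the mutant (log2 fold change -1.48, SE 0.14, limma adjusted p = 0.00034). Fold changes here are xal1-2 over WT on log2(scaled count + 1), where a scaled count is a read count divided by the size factor of its library, and a gene was called at an adjusted p under 0.05. Of 24441 genes tested, 3.93% were called, 1.66% higher and 2.27% lower in the mutant. That split depended on scaling: with library totals 3.97% were called, 2.33% higher, and the higher genes were 58.7% of the calls in place of 42.1%. With at least 10 scaled counts on average, 4.71% were called. On principal component 2, WT replicate 3 had a score of -20.6, away from both remaining WT libraries, which were above 0. On the same component xal1-2 replicate 1 was at -8.34, with xal1-2 replicates 2 and 3 at 11.4 and 4.25.

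Across the family, levels spanned from no reads at all to the top percent of the root transcriptome. Per kilobase of exon, PHT1;1 came first, at 2923 ± 588 scaled counts in WT and 2414 ± 238 in xal1-2 (SD, n = 3 each). PHT1;4 followed at 504 ± 79.2 and 704 ± 31.3, and PHT1;2 at 137 ± 24.0 and 116 ± 17.5. This order of the first 3 held in each of the 6 libraries, with gaps far beyond the spread between replicates. PHT1;9 reached 10.5 ± 4.43 and 6.07 ± 3.86 per kilobase, PHT1;8 3.62 ± 2.35 and 1.85 ± 0.46, and PHT1;5 0.83 ± 0.19 in xal1-2, with 0.58, 0.59 and 2.43 in the WT libraries. The values of AT1G20860 and AT2G32830 overlapped in WT, so their order there is not separated by the replicates. PHT1;3 and PHT1;7 had 3 reads and 1 read over all libraries together, and PHT1;6 had none. By mean scaled count over all libraries, AT5G43350 lay above 99.4% of the genes tested and AT2G38940 above 94.8% of them.

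**Figure D2:**
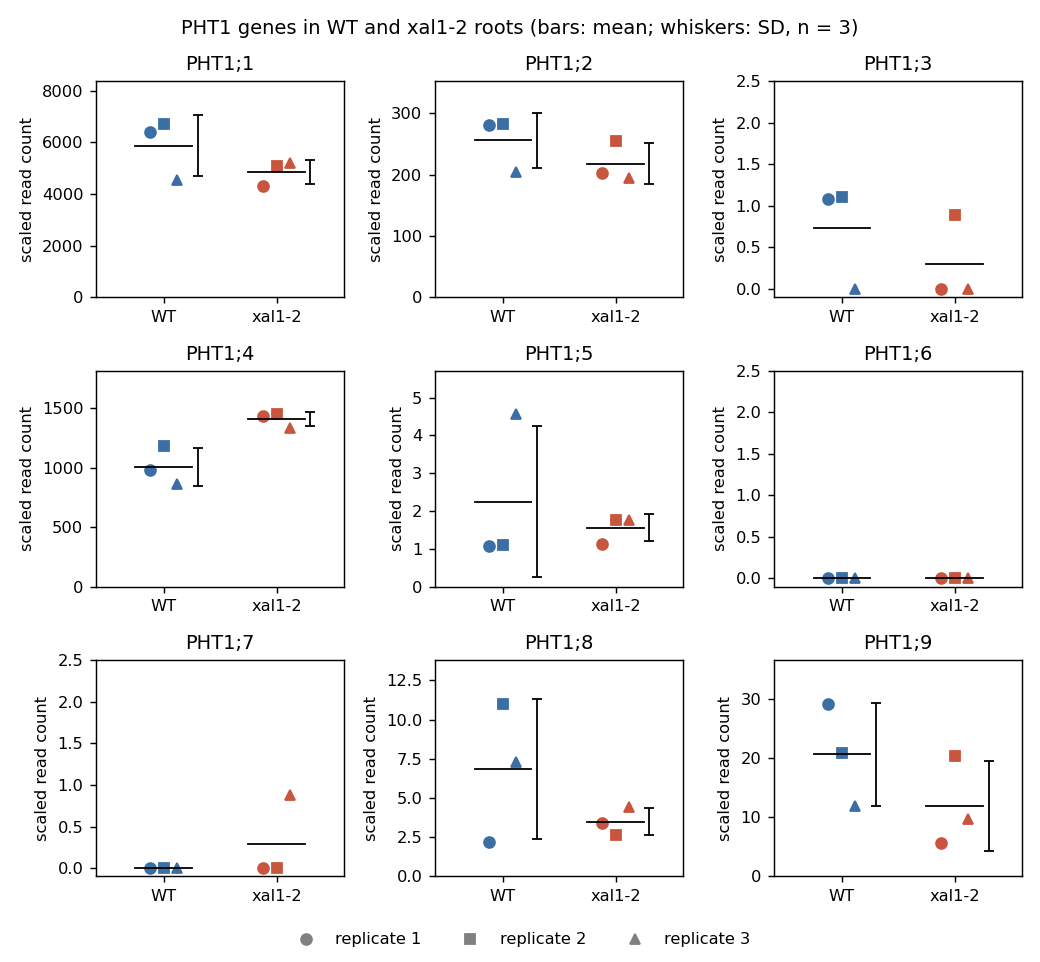
Scaled read counts of the 9 PHT1 genes in WT and xal1-2 roots, 1 panel a gene with its own linear axis. Points are libraries, with the replicate number given by the symbol, short lines are means and whiskers SD (n = 3, left out for genes with at most 2 scaled counts in every library). Of the 9 genes only PHT1;4 has all 3 mutant libraries (1336 to 1451) above all 3 WT libraries (865 to 1178).

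PHT1;4 was the single member of the family called, and it rose in the mutant. The WT libraries, in replicate order, had 981, 1178 and 865 scaled counts of it, and the xal1-2 libraries 1437, 1451 and 1336. Every mutant library lay above every WT library, as was the case for 12.1% of all genes tested, while 11.7% had the reverse order and 23.8% either one. Means were 1008 ± 158 and 1408 ± 62.6 (SD, n = 3 each). On the log2 scale the fold change was 0.49 (SE 0.12, 95% confidence interval 0.23 to 0.75, limma adjusted p = 0.0456). This corresponds to a 1.41-fold rise, below the 1.5-fold limit that the study's design text sets beside its p. Of the 8 members tested, 1 was called, against 3.93% of all genes tested and 5.62% of those with a mean of at least 1000 scaled counts. edgeR's quasi-likelihood test on the recovered reads gave an adjusted p of 0.0428 and called 5.56% of its genes, 2.49% higher in the mutant. DESeq2 gave an adjusted p of 0.0135 and called 5.38%, 1.96% higher. In the authors' deposited table the log2 fold change is 0.48 and the DESeq2 adjusted p 0.0135. These come from the same reads and the same tool, so they are no separate result. The call was lost when any 1 of the 6 libraries was left out (limma adjusted p from 0.0515 to 0.191), with the log2 fold change between 0.39 and 0.61. The summed level of 4 root cap marker genes was also higher in every mutant library (156 to 192 scaled counts) than in every WT library (132 to 149.9), and its part in the rise was not tested. Of the 4 genes only BRN2 had groups that did not overlap, and the sums overlapped without BRN2 (104 to 115 in WT, 111 to 132 in xal1-2) and without SMB (68.5 to 104 and 97.1 to 128), an alternative chosen after seeing the data. In whole roots, more cells of a type and more RNA per cell cannot be told apart.

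**Figure D3:**
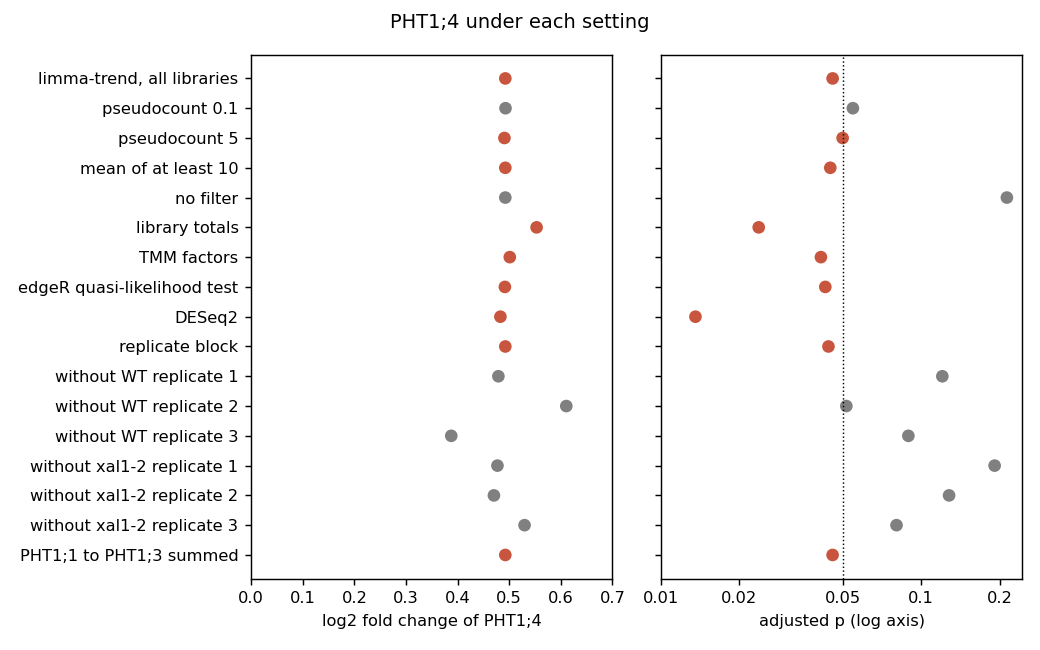
Log2 fold change of PHT1;4 (left, linear axis) and its adjusted p (right, log axis, dotted line at 0.05) in the limma test of all libraries and under 16 other settings, red where called and grey where not. All values lie between 0.39 and 0.61, while the adjusted p falls on either side of 0.05. The setting that sums AT5G43350, AT5G43360 and AT5G43370 leaves the values of AT2G38940 unchanged.

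PHT1;1, the transporter at the highest level, did not pass the test. It had 6411, 6704 and 4525 scaled counts in WT and 4308, 5073 and 5189 in xal1-2. The groups overlapped, because WT replicate 3 was below xal1-2 replicates 2 and 3. The means were 5880 ± 1183 and 4857 ± 479 (SD, n = 3 each), and the log2 fold change was -0.26 (SE 0.17, limma adjusted p = 0.435). The 95% confidence interval ran from 0.65-fold to 1.08-fold of WT. Leaving out 1 library moved the log2 fold change from -0.15 without WT replicate 2 (limma adjusted p = 0.769) to -0.44 without WT replicate 3 (0.107), with -0.18 without xal1-2 replicate 1, and the gene was called in none of these fits.

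PHT1;2, the near copy of PHT1;1, had 281, 282 and 204 scaled counts in WT and 203, 256 and 195 in the mutant. WT replicate 3 was again the lowest WT library, and the groups overlapped. Its log2 fold change was -0.22 (SE 0.15, limma adjusted p = 0.466), with a 95% confidence interval from 0.68-fold to 1.08-fold. The ratio of AT5G43370 to AT5G43350 reads was 0.0437 ± 0.00149 in WT and 0.0450 ± 0.00665 in xal1-2 (SD, n = 3 each, exact permutation test, two-sided, p = 0.9). PHT1;3 had 1, 1 and 0 reads in WT and 0, 1 and 0 in the mutant, too few for a comparison. Summed into 1 value before the fit, AT5G43350, AT5G43360 and AT5G43370 had a log2 fold change of -0.26 and an SE of 0.17 (limma adjusted p = 0.44).

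PHT1;4 was set against PHT1;1 within each library. Each AT5G43350 read was matched by 0.153, 0.176 and 0.191 AT2G38940 reads in WT and by 0.334, 0.286 and 0.257 in xal1-2. The groups did not overlap, and the ratio was 1.68-fold higher in the mutant (log2 difference 0.75, SE 0.14). An exact permutation test over the 6 libraries gave p = 0.1, two-sided, the smallest value that 3 against 3 allows. With the sum of AT5G43350, AT5G43360 and AT5G43370 as the denominator the log2 difference was also 0.75. The ratio does not depend on size factors, but it was chosen with the values of AT2G38940 in view and is no independent support for its rise.

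As a share of all PHT1 reads, PHT1;4 made up 12.7%, 14.4% and 15.4% in the WT libraries. In the mutant it made up 24.1%, 21.3% and 19.8%. The exact 95% binomial intervals, which cover counting error only, reached 16.3% at most in WT and began at 18.9% in the mutant. PHT1;1 held 83.2%, 81.8% and 80.6% of the family's reads in WT and 72.3%, 74.6% and 77.0% in xal1-2. The share of AT2G38940 therefore largely restates its ratio to AT5G43350 and is no independent support for its rise. The summed level of the 9 genes was 7708, 8198 and 5617 scaled counts in WT and 5958, 6805 and 6737 in the mutant. Those sums overlapped, with means of 7174 ± 1371 and 6499.9 ± 471 (SD, n = 3 each, log2 difference -0.13, SE 0.18, exact permutation test, two-sided, p = 0.5).

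**Figure D4:**
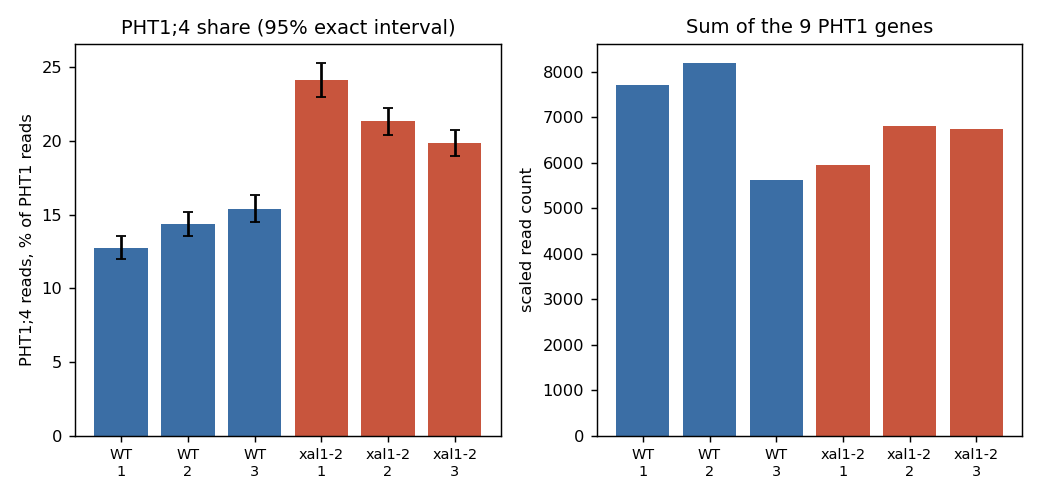
Left, PHT1;4 reads as a percentage of the reads of all 9 PHT1 genes in each library, with exact 95% binomial intervals. Right, the summed scaled count of the 9 genes in each library (blue WT, red xal1-2). The share is 12.7 to 15.4% in WT and 19.8 to 24.1% in xal1-2, whereas the sums of the groups overlap.

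The remaining members had few reads, and none of them passed the test. PHT1;9 had 27, 19 and 13 reads in WT and 5, 23 and 11 in xal1-2. The groups overlapped, and the log2 fold change was -0.83 (SE 0.45, limma adjusted p = 0.349), with a 95% confidence interval from 0.28-fold to 1.12-fold. It ranged from -1.27 without xal1-2 replicate 2 to -0.43 without xal1-2 replicate 1. Its closest relative PHT1;8, 79.0% identical in coding sequence, had 2, 10 and 8 reads in WT and 3, 3 and 5 in xal1-2. Its log2 fold change was -0.62 (SE 0.49, limma adjusted p = 0.535), and ranged from -1.17 without WT replicate 1 to -0.21 without WT replicate 2. PHT1;5 had 1, 1 and 5 reads in WT and 1, 2 and 2 in xal1-2, so its 5 reads in WT replicate 3 set the WT mean (log2 fold change -0.19, SE 0.47, limma adjusted p = 0.851). PHT1;7 had a single read, in xal1-2 replicate 3, and PHT1;6 had 0 reads in every library. By counting error alone, a count of 0 leaves an expected count of up to about 3 reads in a library at 95% confidence. At such counts only very large differences in these genes could have been detected.

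**Figure D5:**
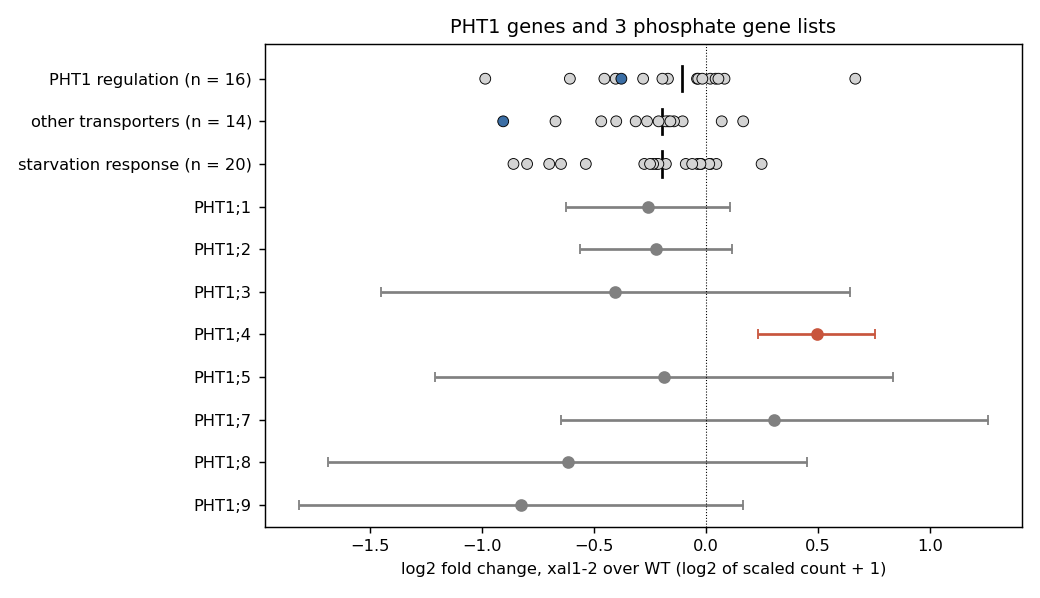
Log2 fold changes (xal1-2 over WT) of the 8 PHT1 genes tested, with 95% confidence intervals from limma, and of the tested genes of 3 phosphate lists, each point 1 gene and each short line the median of its list. PHT1;4 (red) is the PHT1 gene whose interval excludes 0 and that was called, and in the lists the called genes (blue) are AT1G15130 and PHT2;1.

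Of 16 genes known to act on PHT1 transporters or in their regulation, all tested, 0 rose and 1 fell, beside 3.93% called and 2.27% lower over all genes, so the count does not set the list apart. Its median log2 fold change was -0.11, against -0.004 over all genes. AT1G15130, annotated as an endosomal targeting BRO1-like domain protein, had 1289.7, 1236 and 1192 scaled counts in WT and 968, 993 and 899 in the mutant. The groups did not overlap, and it fell (log2 fold change -0.38, SE 0.09, limma adjusted p = 0.0489). That call was lost with library totals (adjusted p = 0.0789), with TMM factors (0.0508), with a pseudocount of 0.1 (0.0543) and without any 1 library (0.0561 to 0.168). PHF1, which lets PHT1 proteins leave the endoplasmic reticulum, was at 439.95 ± 75.6 and 425 ± 39.1 (log2 fold change -0.04, SE 0.13). The ubiquitin ligase gene NLA, whose product marks PHT1 proteins for removal, was at 321 ± 32.4 and 317 ± 65.1 (log2 fold change -0.04, SE 0.14). PHO2, which encodes a ubiquitin-conjugating enzyme with the same role, was at 1108 ± 155 and 841 ± 146 (-0.40, SE 0.14, limma adjusted p = 0.145). These 3 genes and those in the next paragraph were named after their values were seen.

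The transcription factor gene PHR1 was at 408 ± 36.1 scaled counts in WT and 412 ± 28.0 in xal1-2 (log2 fold change 0.02, SE 0.11, limma adjusted p = 0.947), and its homologue PHL1 was at 226 ± 15.7 and 224 ± 26.0. WRKY45, which encodes an activator of PHT1;1, had 201, 193 and 189 in WT and 107, 108 and 176 in xal1-2. Its groups did not overlap, but it missed the threshold (log2 fold change -0.61, SE 0.18, limma adjusted p = 0.0885), except without xal1-2 replicate 3 (-0.84, adjusted p = 0.0174). WRKY75, a further activator of phosphate starvation genes, was at 156 ± 38.0 and 113 ± 22.9 (-0.45, SE 0.20, limma adjusted p = 0.233).

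SPX1, IPS1 and AT4, transcripts known to be induced in phosphate-starved roots, did not pass the test. SPX1 had 242, 346 and 257 scaled counts in WT and 261, 297 and 328 in the mutant, overlapping between the groups (log2 fold change 0.08, SE 0.15, limma adjusted p = 0.786). IPS1, a non-coding RNA that sequesters the microRNA directed against PHO2, had 13, 14 and 8 reads in WT and 11, 31 and 23 in xal1-2 (0.67, SE 0.38, limma adjusted p = 0.366). Its relative AT4 was far more abundant, with 1865, 2025 and 1641 scaled counts in WT and 1698, 1475 and 1648 in xal1-2 (-0.20, SE 0.11, limma adjusted p = 0.373).

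Of 20 genes of the wider starvation response, which cover lipid remodelling, phosphatases and root growth under low phosphate, limma called 0, beside 3.93% of all genes, with 4 at an unadjusted p under 0.05. Over all genes tested 19.6% had such a p, so neither count sets the list apart. edgeR also called 0 and DESeq2 called 1, namely PS2, a phosphatase gene (DESeq2 log2 fold change -0.88, adjusted p = 0.0238). The median log2 fold change of the list was -0.20, with 16 below 0 and 4 above, against a median of -0.004 and 50.5% below 0 over all genes. The phosphatase gene PAP26, the member with the highest mean, was at 4604 ± 524 and 4308 ± 284 (-0.09, SE 0.13, limma adjusted p = 0.727). STOP1, encoding a zinc finger factor of the root's response to acidity, was at 1233 ± 149.5 and 1175 ± 42.0 (-0.06, SE 0.11, limma adjusted p = 0.78).

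Of 15 phosphate transporters of other families and organelles, 14 were tested, 0 rose and 1 fell, a count that does not stand apart from the 3.93% called over all genes. Their median log2 fold change was -0.20, against -0.004 over all genes. PHT2;1, the phosphate transporter of the chloroplast envelope, had 283, 375 and 419 scaled counts in WT and 155, 189 and 229 in the mutant. All mutant libraries were below all WT libraries, and it fell (log2 fold change -0.91, SE 0.17, limma adjusted p = 0.0169). The call was lost without WT replicate 2 (adjusted p = 0.0848), WT replicate 3 (0.0518), xal1-2 replicate 1 (0.133) or xal1-2 replicate 2 (0.0537). PHO1, which loads phosphate into the xylem, was at 2554 ± 215 and 2395 ± 448 (-0.11, SE 0.14, limma adjusted p = 0.724). PHT3;1, a carrier of the mitochondrial inner membrane, was at 3629.6 ± 177 and 3038 ± 398 (-0.26, SE 0.13, limma adjusted p = 0.279). PHO1;H1, a relative of PHO1 named after its values were seen, was at 285 ± 32.0 and 205 ± 12.4 (-0.47, SE 0.12, limma adjusted p = 0.0518), and edgeR called it (adjusted p = 0.0482).

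Promoters were searched on both strands for the P1BS element GNATATNC in the 1000 bases before each annotated gene start. It was found before 7 of the 9 PHT1 genes, against 20.3% of 27443 protein-coding genes. PHT1;4 and AT1G76430 had no match in that window, so these letters are absent there, whereas PHT1;1 and AT5G43370 each had 2. The window of AT2G38940 ends in gaatata, which fits all but the last letter of the element. Bases from the annotated start onward were not searched, so a match across that start could not be found. A stretch holding the pair before AT5G43350 (chromosome 5, 17402899 to 17402958, minus strand) is shown. Below it is the stretch with the match nearest to the start of AT5G43370 (chromosome 5, 17415636 to 17415695, plus strand). They are shown because these genes hold the element within the window searched, where AT2G38940 had no full match. Capitals mark the matches.
AT5G43350: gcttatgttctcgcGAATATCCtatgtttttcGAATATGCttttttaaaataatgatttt
AT5G43370: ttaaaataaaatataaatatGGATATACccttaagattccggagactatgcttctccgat
The pair before AT5G43350 begins 786 and 768 bases before the annotated start, and the match of AT5G43370 begins 42 bases before it. The W-box core TTGAC, recognised by WRKY factors, was present before all 9 genes and before 88.1% of all genes. The CArG box, the element bound by MADS-box proteins such as XAL1, was searched as CCWWWWWWGG, with W for A or T. It was found before 0 of the 9 genes and 7.22% of all genes in windows of this length. At that share the count does not set the family apart, and other forms of the box were not searched. Matches are descriptions of sequence and do not show binding.

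The profiles most like those of the PHT1 genes at a mean of at least 100 scaled counts were sought among 12044 genes, by the root mean square distance between log2 profiles centred over the 6 libraries. For PHT1;1 the nearest was WRKY36 (AT1G69810), which encodes a WRKY factor, at a distance of 0.0242 and with a log2 fold change of -0.24. For AT5G43370 it was AT5G37600 (distance 0.0334), given as GSR 1 in the reference, at -0.22. For PHT1;4 it was AT3G20380, annotated as a TRAF-like family protein, at a distance of 0.0437, with 258, 313 and 230.3 scaled counts in WT and 376, 374 and 326 in xal1-2. The second nearest were AT2G45750, a methyltransferase family gene, for AT5G43350, AT5G14330, annotated as uncharacterized, for AT5G43370, and AT1G11540, a sulfite exporter family gene, for AT2G38940. With 6 libraries in 2 groups, such likeness rests on few points.

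Marker genes were examined because the uptake carriers are known from outer root tissues and the root cap. All 11 root hair markers were detected and 0 of them were called, which at 3.93% called over all genes says nothing particular of this list or of the shorter ones that follow. Their summed level, 5223 to 8554 scaled counts in WT and 4776 to 7734 in xal1-2, overlapped between the groups. Of the root hair markers, 9 had log2 fold changes below 0 and 2 above (median -0.22), beside 50.5% below 0 over all genes. Their part in the levels of the PHT1 genes was not tested. All 4 root cap markers were detected, with 0 called and 4 log2 fold changes above 0 (median 0.37), beside 49.5% above 0 over all genes. Their sums are given beside PHT1;4. SMB, BRN1, BRN2 and FEZ are the genes of that list, and none was at 0 in all libraries. Of 8 green tissue markers, 0 were called and none was at 0 in all libraries, with sums of 2943 to 3885 in WT and 2309.5 to 4251 in the mutant. Their log2 fold changes were below 0 for 5 genes and above for 3 (median -0.19).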

How the data were processed

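Stranded mRNA libraries of 6 root samples were sequenced in pairs of reads, per the labels. Trimmomatic, FastQC, Subread, DESeq2 and the build TAIR10 are named in the submitters' processing notes, without settings. The authors deposited per gene a signal, namely read counts divided by a size factor per library, and the mean over libraries. The authors also deposited each gene's log2 fold change and standard error, the score of their test, and p-values with adjusted p-values. Dividing by the smallest step recovered whole reads for 100% of values above 0 (tolerance 0.001 of a read).

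The main test was limma 3.58.1 (limma-trend, R 4.3.3) on log2(scaled count + 1) for the 24441 genes that had a read in any library. It compared genotypes over all 6 libraries without covariates, with Benjamini-Hochberg adjustment over all genes tested. The other 8392 genes had no reads. edgeR 4.0.16 and DESeq2 1.42.0 on recovered reads were alternatives, and scripts were tested on simulated data. Members, gene lists and tests were chosen with earlier results of these data known. Named were all members, XAL1, list genes that were called, the 2 list members of highest mean where under 2 were called, SPX1, IPS1 and AT4, and the text states other choices. Coordinates and sequences come from RefSeq's TAIR10.1, whose annotation matched 32548 of 32833 identifiers. Exon lengths are unions over annotated transcripts. Replicates are biological per the labels, and no 2 libraries of the same genotype agreed within sampling noise (chi-square per degree of freedom 4.09 to 10.1).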

Additional observations from a re-analysis of the deposited data

How the results depend on the processing

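PHT1;4 stayed above 0 under all 16 other settings (log2 fold change 0.39 to 0.61) and was called under 8 of them. Among those 8, the setting that sums AT5G43350, AT5G43360 and AT5G43370 leaves the values of AT2G38940 unchanged. Its call there (adjusted p = 0.0456) therefore adds nothing to the main test. The number of PHT1 genes called, 1, became 0 with a pseudocount of 0.1 (adjusted p = 0.0546), without a filter on low values (0.213), with a fold change above 1.5 required, and when any 1 library was left out (range 0 to 0). Without a filter 154 genes were called in all in place of 961, genes with no variance having entered the fit, that setting called 0 genes in the lists of PHT1 regulation and other phosphate transporters. Leaving out 1 library gave 81 to 871 calls in all, 0 to 1 in PHT1 regulation, 0 to 1 in other transporters and 0 to 2 in the starvation response. The single call in PHT1 regulation became 0 with a pseudocount of 0.1, library totals, TMM factors, the replicate block or the fold limit. In other transporters the count was 2 in edgeR and with a mean of at least 10 required. In the starvation response it was 1 in DESeq2 and 1 with the replicate block (LPR1). Same-numbered WT and mutant libraries did not deviate together throughout (correlations -0.005, 0.42 and -0.08). These values were centred within groups of 3 libraries, so the correlations cannot decide whether the numbers pair the samples. With the replicate block 839 genes were called, 715 of them shared with the main test, and PHT1;4 had a limma adjusted p of 0.044. PHT1;5 ranged from -0.43 to 0.28 when 1 library was left out, positive without WT replicate 3, and SPX1 from -0.018 to 0.24, negative without WT replicate 1. Without 1 library the log2 difference of the PHT1;4 to PHT1;1 ratio was 0.65 to 0.84 and that of the family sum -0.29 to -0.02. The causes were not tested. Replicates number 3 a group, and counts under about 30 reads left PHT1;3 and PHT1;5 to PHT1;8 without a usable comparison.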
